A study of Homo sapiens with 16 samples.

Results

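Divergent transcripts, whose gene symbols end in -DT, are long non-coding RNAs that start at the promoter of a protein-coding gene and run away from it on the other strand. They were followed here in P493-6, an immortalised human B cell line, at high and medium MYC and with or without an inhibitor of N-myristoylation. The deposited table held 578 identifiers whose symbol ends in -DT, and 461 of them had a read in at least 1 library. The 159 transcripts described were chosen by their own level, as those with a mean normalized count of at least 10 over the 16 libraries, out of 58051 identifiers in the table. Their levels are therefore a description. The differences between groups entered this rule only through the mean, but the set was chosen with earlier results of these data known. Of the 159, 41 had a mean below 10 in at least 1 of the 4 groups. The last transcripts inside the limit were KCTD13-DT at 10.3, ZNF516-DT at 10.1 and ODC1-DT at 10.1, and the first outside were CABP1-DT at 9.93, NUDT19-DT at 9.89 and CZIB-DT at 9.78.

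Most mammalian promoters start RNA polymerase II in both directions. The upstream, antisense product is usually short-lived: early termination, by the Integrator complex among others, and decay by the nuclear RNA exosome keep it low, while splicing and a lack of early polyadenylation sites favour the coding direction. A named -DT gene is a divergent product that is spliced or stable enough to have been annotated, and it carries the symbol of the coding gene it shares a promoter with, here called its partner. MYC binds open promoters widely, so that both directions of a shared promoter lie close to the sites it occupies.

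Doxycycline shuts off the MYC transgene that P493-6 cells carry, while their viral EBNA2 works only with oestrogen. High MYC cells grew in ordinary medium, and medium MYC cells had 0.1 µg/mL doxycycline together with 1 µM β-estradiol from 24 h before treatment. Each kind then received 100 nM IMP1088, which blocks NMT1 and NMT2, the enzymes that attach myristate to the first glycine of many proteins, or DMSO as the control, for 24 h. The 4 groups were thus high MYC with DMSO, high MYC with IMP1088, medium MYC with DMSO and medium MYC with IMP1088, with 4 libraries each. MYC level, doxycycline and estradiol changed together and cannot be told apart, and no group was grown without MYC. The labels do not say whether libraries of a group came from separate cultures, so the p-values measure the spread between these libraries only.

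Libraries held 8755296 to 13858534 reads, and no pair within a group agreed closely enough to be a repeat deposit. All 8 B cell markers fixed for the check were expressed, and their summed level ran from 40451 to 42835 at high MYC with DMSO, 34080 to 35250 with IMP1088, 62194 to 66115 at medium MYC with DMSO and 56164 to 57808 with IMP1088. Of these markers 7 were lower with IMP1088 at high MYC and 5 at medium MYC, and the part of this shift in the results below was not tested. Markers of other cell types were low: 2 of 6 T cell, 1 of 6 monocyte and 3 of 9 epithelial or fibroblast genes reached a mean of 10, and TRAT1, FCN1, KRT18 and DCN had no read. The 3 sums lay between 41.4 and 95.4 for the T cell and monocyte lists, and rose from at most 94.6 at high MYC to at least 224.9 at medium MYC for the epithelial and fibroblast list, carried by CDH1 and COL1A1. EPCAM, on the same list, went the other way, from a mean of 62.1 at high MYC to 13.1 at medium MYC with DMSO. In bulk RNA, fewer cells of a kind and less RNA per cell cannot be told apart.

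In most pairs the 2 start sites lay close together, and the stretches printed below show how little DNA can separate a coding gene from its divergent transcript. RefSeq (GRCh38.p14) listed a promoter for 130 of the 159 transcripts, and for 125 pairs it placed both starts on opposite strands, a median of 160 bases apart, with 80 pairs at 20 to 250 bases. Not all pairs were so close. Those starts were 16955 bases apart for GARS1-DT and 3265 for RNF32-DT, and in 7 pairs they overlapped. The stretches below lie between the starts and are read on the strand of the -DT transcript, so that it begins just after the last base and the partner begins just before the first base, on the other strand. They were chosen for the transcripts whose values carry the results: AFTPH-DT and TMCC1-DT for MYC level, STAM-DT and INSIG1-DT for the inhibitor at high MYC, DNAJC3-DT for the inhibitor at medium MYC, SRP14-DT for a fall, and TFIP11-DT for a move against its partner. Capitals mark exact matches, on either strand, to the E-box CACGTG that MYC and its relatives bind, to the CCAAT box, to the GC box with letters GGGCGG, to the ETS site with letters CCGGAA, to the cAMP response element with letters TGACGTCA, to the NRF1 site with letters GCGCATGC or to the TATA box with letters TATAAA, and neighbouring or overlapping matches run together.
AFTPH-DT, chr2:64524156-64524327, minus strand: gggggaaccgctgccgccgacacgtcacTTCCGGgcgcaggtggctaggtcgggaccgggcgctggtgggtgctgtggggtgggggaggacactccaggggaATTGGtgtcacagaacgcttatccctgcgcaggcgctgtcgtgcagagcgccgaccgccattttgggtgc
TMCC1-DT, chr3:129893712-129893870, plus strand: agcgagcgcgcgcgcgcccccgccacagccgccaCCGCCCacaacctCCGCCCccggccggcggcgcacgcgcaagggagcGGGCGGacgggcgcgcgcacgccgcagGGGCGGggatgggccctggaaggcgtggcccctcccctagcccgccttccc
STAM-DT, chr10:17643919-17644150, minus strand: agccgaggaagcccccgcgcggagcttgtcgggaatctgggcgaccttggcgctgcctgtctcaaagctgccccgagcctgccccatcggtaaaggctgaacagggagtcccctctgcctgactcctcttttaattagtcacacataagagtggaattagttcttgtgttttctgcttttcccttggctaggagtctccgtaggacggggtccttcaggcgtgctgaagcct
INSIG1-DT, chr7:155297659-155297877, minus strand: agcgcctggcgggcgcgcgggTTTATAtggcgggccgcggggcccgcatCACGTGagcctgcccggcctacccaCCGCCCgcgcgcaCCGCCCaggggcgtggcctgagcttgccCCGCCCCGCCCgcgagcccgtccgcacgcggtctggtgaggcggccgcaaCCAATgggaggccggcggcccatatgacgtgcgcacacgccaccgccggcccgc
DNAJC3-DT, chr13:95676926-95677138, minus strand: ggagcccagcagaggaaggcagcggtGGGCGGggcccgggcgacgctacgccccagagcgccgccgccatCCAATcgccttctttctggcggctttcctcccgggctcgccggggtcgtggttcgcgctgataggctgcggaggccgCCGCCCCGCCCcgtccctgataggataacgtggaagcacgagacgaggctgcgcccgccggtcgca
SRP14-DT, chr15:40039203-40039310, plus strand: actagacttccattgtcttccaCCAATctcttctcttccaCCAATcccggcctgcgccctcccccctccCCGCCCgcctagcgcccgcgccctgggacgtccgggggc
TFIP11-DT, chr22:26512474-26512531, plus strand: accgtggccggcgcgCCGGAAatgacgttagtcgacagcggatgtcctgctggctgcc

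The INSIG1 stretch held an E-box, a CCAAT box, 4 GC boxes and a TATA box, and its GC content was 78.5%. The STAM stretch held none of the 7 motifs in 232 bases, with a GC content of 57.3%. Over RefSeq windows from 250 bases before to 50 bases after the start, GC boxes were in 74.6% of the 130 -DT promoters against 45.0% of all 35116 promoters, ETS sites in 39.2% against 17.2%, NRF1 sites in 10.8% against 3.05%, and TATA boxes in 5.38% against 11.5%. CCAAT boxes were in 36.2% against 34.6%, cAMP response elements in 2.31% against 1.85%, and E-boxes in 12 windows, or 9.23% against 7.26%. The median log2 change from high to medium MYC in controls was 0.02 for the 12 transcripts with an E-box in that window and -0.16 for the 118 without. These are matches to letters and say nothing about what is bound.

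The 159 transcripts lay on 22 chromosomes. GENCODE 29 classes 86 of them as antisense, 60 as lincRNA, 11 as processed transcripts and 2 as bidirectional promoter lncRNAs. All but ARHGAP11B-DT had a partner in the table, always on the opposite strand, and by that annotation the starts were a median of 87 bases apart. In 50 pairs the starts overlapped, in 25 of them by more than 500 bases, and 44 transcripts had exons overlapping those of the partner. Whether the authors' counting used strand is not given in the sources used here, so reads in such overlaps cannot be assigned to a gene with certainty. In 89 transcripts no exon overlapped any other gene.

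They were low in abundance. Their mean normalized counts ran from 10.1 to 394 with a median of 28.0, against a median of 484 for their partners and 266 for all 13765 genes with a mean of at least 10. Per kilobase of exon the medians were 13.96 for the -DT transcripts and 88.0 for the partners, and 149 of 158 transcripts were below their own partner. The most abundant, by normalized count, was GARS1-DT, beside the glycyl-tRNA synthetase gene GARS1, at 383, 362, 388 and 392 at high MYC with DMSO and 429, 449, 413 and 461 at medium MYC with DMSO. Its exons overlap several unnamed genes as well as GARS1, so this level is uncertain. CTBP1-DT, beside the corepressor gene CTBP1 and overlapping its exons, followed at a mean of 250.4 over all libraries.

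RIPK2-DT and RAB30-DT were also among the 5 most abundant. RIPK2-DT, whose partner encodes a kinase of bacterial sensing, stood at 167, 166, 181 and 137 at high MYC with DMSO and at 298, 312, 286 and 335 at medium MYC with DMSO, groups that did not overlap, and with IMP1088 it had 141, 175, 154 and 139 at high MYC and 315, 293, 309 and 335 at medium MYC, each overlapping its DMSO group. RAB30-DT, whose partner encodes a Golgi GTPase, had 154, 133, 142 and 129 at high MYC with DMSO and 223, 251, 202 and 184 with IMP1088, and 146, 128, 137 and 153 and 176, 163, 173 and 174 at medium MYC.

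The first question was what blocking N-myristoylation did to these transcripts at high MYC. More were called higher than lower: 66 of 159 were higher with IMP1088 and 3 lower, where a call is a limma adjusted p under 0.05 over all 13765 genes, of which 10.5% were called higher and 16.3% lower. The median log2 change, on the log2(value + 1) scale used throughout, was 0.43 for the -DT transcripts and -0.02 for all genes, and 126 of 159 were above 0. Of the 66, 22 rose at least 2-fold, a share not counted for all genes. Of the 159, 41 had a mean below 10 in at least 1 group, and some reached the limit through the groups where they are high. Such transcripts were not left out of the counts in this and the later comparisons, so those counts may be too large. Of the 47 transcripts with a mean of at least 50, 28 were called higher and none lower, against 10.7% higher among all genes at that level. Their 156 tested partners were called higher in 25 and lower in 20 cases, with medians near 0.

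The share of all reads that fell on the 159 transcripts shows the same in every library. It was 0.0640%, 0.0662%, 0.0637% and 0.0666% at high MYC with DMSO and 0.0882%, 0.0879%, 0.0849% and 0.0852% with IMP1088, so that all treated libraries lay above all controls and the means differed 1.33-fold. Without the 10 most abundant transcripts the ratio was 1.40. For the -DT transcripts with a mean below 10, which are not among the 159 but were picked by the same symbol ending, the ratio was 1.41. For the partners it was 1.01, for genes annotated as sense-intronic 1.03, for lincRNAs 1.04, for other non-coding genes at head-to-head promoters 1.10, for genes of the annotation's class TEC 1.12, for antisense genes 1.16 and for snoRNAs 1.29. The antisense and lincRNA ratios include the -DT transcripts annotated in those classes, 86 and 60 of the 159. The snoRNA share ran from 0.468% to 0.738% with DMSO and from 0.796% to 0.915% with IMP1088, without overlap, and its part in the -DT result was not tested. By calls, 88 of 441 other antisense genes were higher and 22 lower, and 87 of 438 other lincRNAs were higher and 21 lower.

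**Figure D1:**
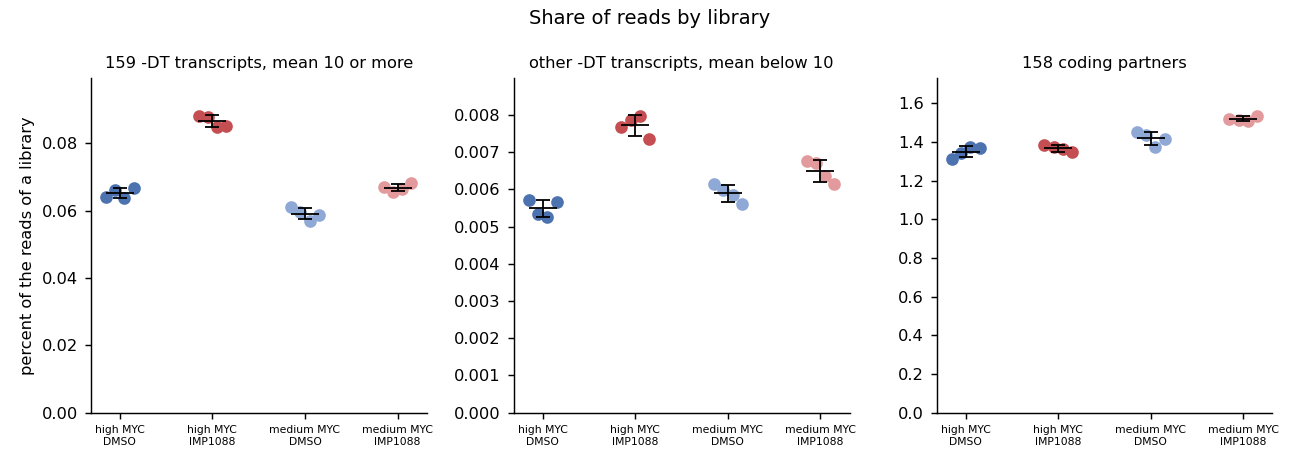
Percent of each library's reads on the 159 -DT transcripts, on the -DT transcripts with a mean below 10 and on the 158 partners, by group; points are libraries, the bar is the mean and the whiskers are the SD of 4 libraries, and each axis starts at 0. At high MYC every IMP1088 library lies above every DMSO library for both sets of -DT transcripts, with ratios of means of 1.33 and 1.41, against 1.01 for the partners.

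IRF2-DT moved most among transcripts named by a rule on size, level and separation. It starts beside IRF2, which encodes a transcription factor of the interferon response, and had 26.4, 20.2, 14.3 and 27.9 with DMSO and 60.2, 68.8, 49.7 and 66.5 with IMP1088. The groups did not overlap, and the log2 change was 1.46 ± 0.16 (± SE, 4 libraries a group, adjusted p = 8.22e-07, limma). IRF2 itself went the other way, from 198, 213, 188 and 188 to 162, 163, 164 and 173, a log2 change of -0.25 ± 0.07 (adjusted p = 0.00898).

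NSMCE1-DT lies beside the gene of a SMC5/6 complex subunit, shares 40 exonic bases with it, and rose from 12.8, 15.7, 17.7 and 17.9 to 53.8, 43.3, 34.0 and 43.7, a log2 change of 1.39 ± 0.22 (adjusted p = 5.53e-05). PAPOLA-DT, beside the gene of the canonical poly(A) polymerase and overlapping 157 of its exonic bases, rose from 20.3, 21.3, 18.8 and 17.9 to 53.8, 49.9, 41.9 and 62.4 (1.35 ± 0.21, adjusted p = 4.74e-05). In each case the lowest treated library was above the highest control. Neither NSMCE1 nor PAPOLA was called, with log2 changes of -0.08 ± 0.08 and -0.03 ± 0.04.

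BMP2K-DT and STAM-DT overlap no other gene. BMP2K-DT, beside a kinase gene, rose from 26.4, 31.4, 25.4 and 32.4 to 67.7, 92.1, 76.8 and 60.3 (1.32 ± 0.14, adjusted p = 3.26e-07). STAM-DT, whose promoter stretch is printed above and whose partner encodes an endosomal sorting adaptor, rose from 35.4, 42.7, 29.8 and 35.8 to 88.2, 79.9, 98.6 and 76.9 (1.24 ± 0.15, adjusted p = 2.21e-06). Treated and control libraries were separate for both transcripts. STAM rose as well, by less, from 154, 169.6, 188 and 191 to 211, 211, 213 and 195 (0.24 ± 0.08, adjusted p = 0.0242).

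The 3 transcripts called lower at high MYC were TTC9-DT, ZDHHC12-DT and SRP14-DT. TTC9-DT fell from 15.8, 23.6, 29.8 and 17.9 to 13.98, 7.76, 6.98 and 8.32 (-1.16 ± 0.24, adjusted p = 0.000833), and TTC9, which encodes a tetratricopeptide protein, fell with it from 148, 175, 145 and 135 to 95.7, 96.5, 91.6 and 91.5. The exons of TTC9-DT contain RN7SL77P, a copy of an abundant small RNA on the same strand, so its reads may be shared with other copies. ZDHHC12-DT, beside a palmitoyltransferase gene, fell from 18.1, 20.2, 16.6 and 16.8 to 10.8, 11.1, 13.1 and 9.36 (-0.65 ± 0.17, adjusted p = 0.00705, limma), a call that DESeq2 did not make (adjusted p = 0.105). SRP14-DT, beside the gene of a signal recognition particle protein, fell from 40.7, 29.2, 44.1 and 34.6 to 22.6, 26.6, 19.2 and 23.9 (-0.66 ± 0.20, adjusted p = 0.0186). It was not called without high MYC DMSO library 1, DMSO library 3 or IMP1088 library 3 (adjusted p up to 0.0598).

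**Figure D2:**
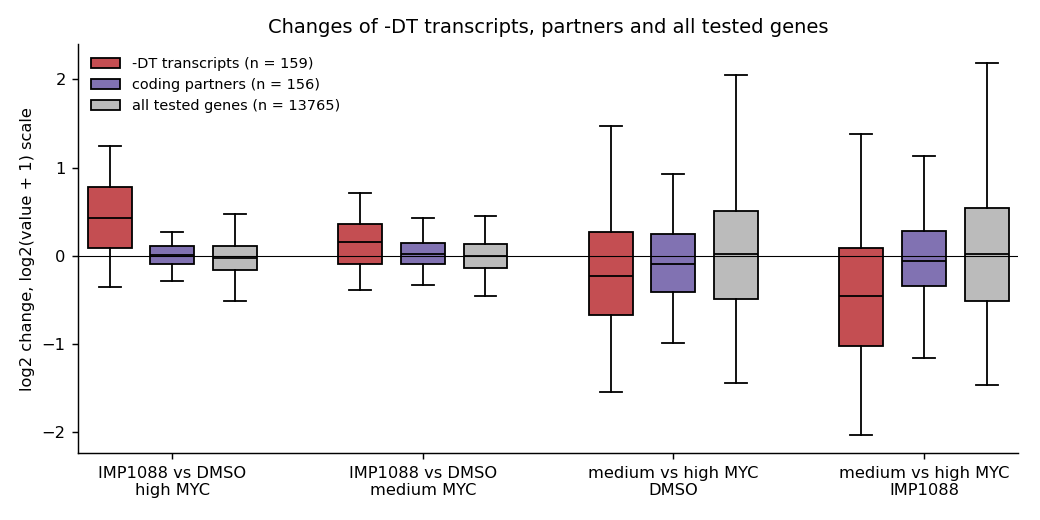
Log2 change, on the log2(value + 1) scale, of the 159 -DT transcripts, their 156 tested partners and all 13765 tested genes in 4 comparisons; boxes show quartiles and median, and whiskers the 5th to 95th percentile. The -DT median was 0.43 with IMP1088 at high MYC, 0.16 at medium MYC and -0.22 from high to medium MYC in DMSO, while the medians of all genes were -0.02, -0.01 and 0.02.

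At medium MYC fewer of them were called. With IMP1088 24 of 159 were higher and 2 lower, against 11.7% and 14.6% of all genes, and the median log2 change was 0.16 (-0.01 for all genes) with 104 above 0. Of these 24, 22 were also called higher at high MYC, which is 91.7% of the 24 and 33.3% of the 66, and the same overlap was not counted for all genes. Shares of reads were 0.0609%, 0.0595%, 0.0569% and 0.0588% with DMSO and 0.0670%, 0.0656%, 0.0665% and 0.0683% with IMP1088, again without overlap, with a ratio of means of 1.13. The partners' ratio was 1.07, and that of the -DT transcripts with a mean below 10 was 1.10. For TEC genes it was 1.02, for sense-intronic genes 1.04, for lincRNAs 1.04 and for antisense genes 1.08. Other non-coding genes at head-to-head promoters had 1.10, near the -DT ratio, and snoRNAs had 1.33, above it. Of the 47 transcripts with a mean of at least 50, 16 were called higher, against 13.4% of all genes at that level, and of the 63 with a mean of 10 to 20, 2 were, against 3.75%.

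PTPN23-DT, beside the gene of an endosomal sorting phosphatase, moved most among those that met the rule, from 17.7, 24.0, 33.3 and 24.6 with DMSO to 45.4, 54.6, 47.0 and 39.3 with IMP1088 (0.90 ± 0.18, adjusted p = 0.000596, limma). At high MYC it went from 27.1, 31.4, 25.4 and 34.6 to 54.8, 51.0, 42.8 and 56.1 (0.77 ± 0.18). TBC1D22A-DT, beside a gene of the Rab GTPase-activating family, rose at both levels, from 51.2, 56.2, 54.1 and 52.5 to 106, 101, 98.6 and 80.0 at high MYC and from 28.2, 35.1, 23.6 and 32.8 to 55.9, 51.7, 50.1 and 53.4 at medium MYC (0.83 ± 0.13 and 0.81 ± 0.13). TBC1D22A fell at both, with log2 changes of -0.25 ± 0.06 (adjusted p = 0.00427) and -0.23 ± 0.06 (adjusted p = 0.00707). It was the 1 pair of this kind at medium MYC, and the only pair that met the opposite-direction rule at both levels.

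The next transcripts by size, EIF2AK3-DT and DNAJC3-DT, have partners that act in the unfolded protein response of the endoplasmic reticulum (ER). EIF2AK3-DT lies beside the gene of PERK, the kinase that slows translation under such stress, and overlaps 38 of its exonic bases. It had 39.6, 50.5, 41.1 and 44.3 with DMSO and 79.2, 66.6, 77.3 and 77.6 with IMP1088 at medium MYC (0.77 ± 0.14, adjusted p = 0.000209), and 39.9, 40.4, 47.5 and 31.3 and 103, 91.0, 87.3 and 76.9 at high MYC (1.16 ± 0.14). EIF2AK3 went from 478, 494, 499 and 502 to 762, 741, 788 and 740.1 at medium MYC (0.62 ± 0.04) and from 699.7, 701, 694 and 657 to 805, 819.7, 835 and 841 at high MYC (0.26 ± 0.04), so both directions of this promoter rose in both comparisons.

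DNAJC3-DT, beside the gene of an ER co-chaperone that also restrains PERK, rose from 51.1, 31.7, 38.5 and 41.0 to 66.4, 74.5, 65.8 and 66.5 (0.76 ± 0.15, adjusted p = 0.000468), and DNAJC3 rose with it (0.60 ± 0.05). TFIP11-DT, by GENCODE 32 bases from a gene of spliceosome disassembly, rose from 29.2, 23.1, 22.8 and 18.9 to 40.8, 38.7, 39.7 and 35.3 (0.71 ± 0.14, adjusted p = 0.000686), while TFIP11 was not called (0.06 ± 0.06). The single transcript called and at least 2-fold higher at medium MYC, HSPA5-DT, has a mean below 20 and is named here after its values were seen. It reached the mean of 10 only through its IMP1088 groups, so its values are given as a description with no test. It had 4.17, 5.99, 2.63 and 5.74 with DMSO and 17.5, 9.93, 10.4 and 16.1 with IMP1088 at medium MYC, and 6.03, 12.4, 6.62 and 10.1 and 22.6, 29.9, 26.2 and 31.2 at high MYC. HSPA5, the main ER chaperone BiP, rose at medium MYC from 2891, 3058, 2922 and 3081 to 7245, 7231, 7386 and 7115 (1.28 ± 0.03) and had 4831, 5066, 5183 and 4998 and 5142, 5163, 5203 and 5101 at high MYC (0.04 ± 0.03, adjusted p = 0.339).

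The 2 transcripts called lower at medium MYC were TTC9-DT and RNASEH1-DT. TTC9-DT fell from 36.5, 30.0, 35.0 and 32.8 to 18.6, 24.8, 17.8 and 16.1 (-0.78 ± 0.24, adjusted p = 0.0171), as TTC9 did (-0.52 ± 0.07), and was not called without medium MYC IMP1088 library 4 (adjusted p up to 0.0565 over its lost calls). RNASEH1-DT, beside a gene whose enzyme degrades RNA in RNA-DNA hybrids, changed from 29.2, 36.0, 32.4 and 43.5 to 24.5, 27.8, 21.9 and 32.3, groups that overlap (-0.39 ± 0.14, adjusted p = 0.046).

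**Figure D3:**
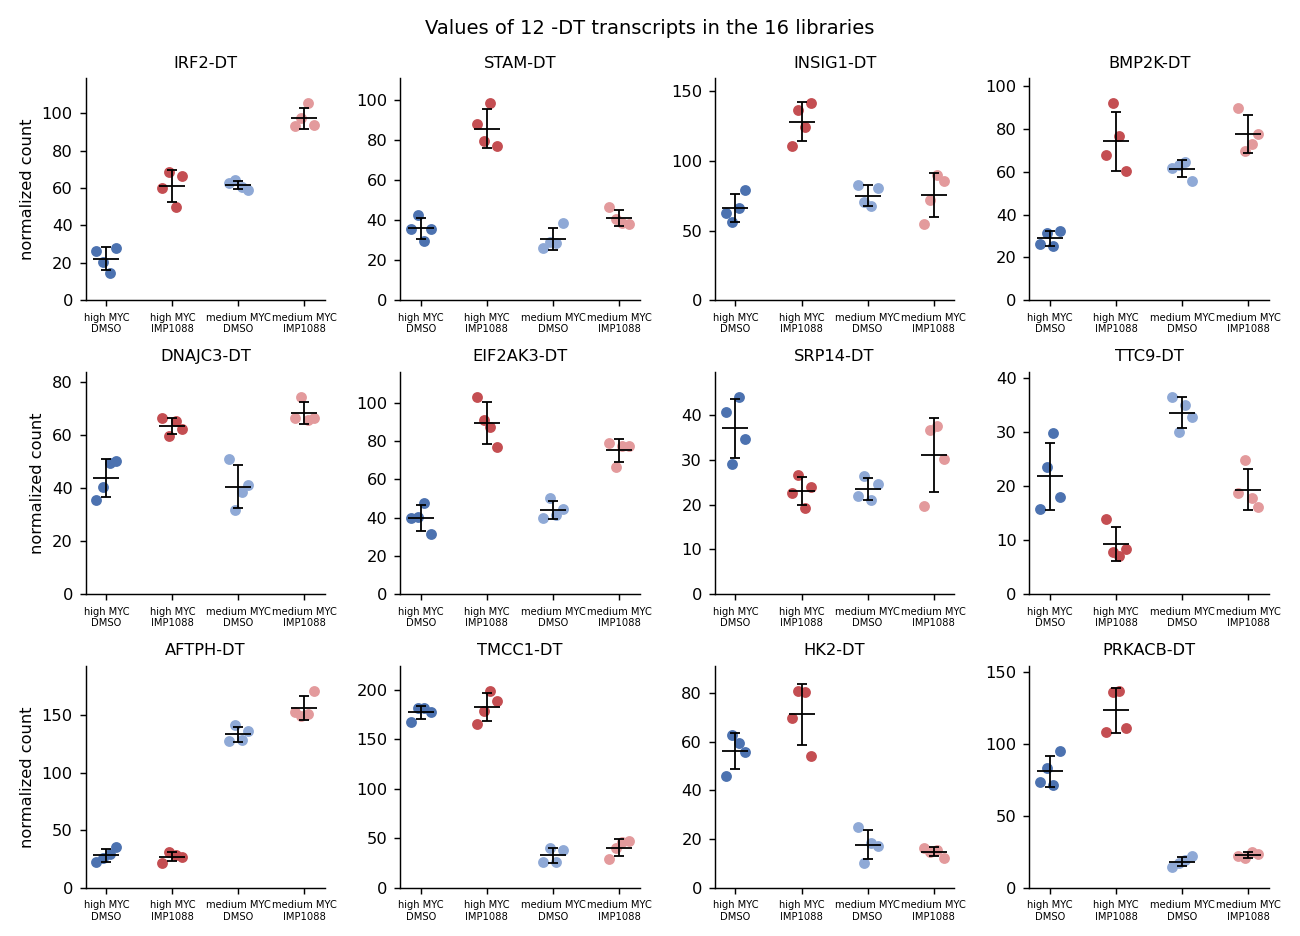
Normalized counts of 12 -DT transcripts in the 16 libraries, by group; points are libraries, the bar is the mean and the whiskers are the SD of 4 libraries, and each axis starts at 0. The 4 IMP1088 libraries at high MYC lie above the 4 DMSO libraries for IRF2-DT, STAM-DT, INSIG1-DT, BMP2K-DT, DNAJC3-DT, EIF2AK3-DT and PRKACB-DT, and AFTPH-DT, TMCC1-DT, HK2-DT and PRKACB-DT separate by MYC level in DMSO.

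A test of the difference between the responses at the MYC levels called 11 transcripts, 10 with a larger log2 change at high MYC and 1 with a smaller one, against 3.31% and 5.33% of all genes. The 10 include SMC2-DT, EFCAB6-DT and GNB1-DT, which reached the mean of 10 through the groups where they are high. Their calls are not a valid test, so the count of 10 is too large as a result. Of all 159 the response was larger at high MYC in 113, and the median difference was 0.27. BMP2K-DT had 61.5, 63.4, 64.8 and 55.8 with DMSO and 89.7, 69.5, 73.1 and 77.6 with IMP1088 at medium MYC beside its rise at high MYC, a difference in log2 change of 0.99 ± 0.20 (adjusted p = 0.00216, limma). INSIG1-DT, beside the gene of an ER membrane protein that holds back sterol synthesis, had 62.5, 56.2, 66.2 and 79.4 with DMSO and 111, 136, 124 and 141 with IMP1088 at high MYC and 82.4, 70.2, 67.4 and 80.4 with DMSO and 54.8, 71.5, 89.8 and 85.7 with IMP1088 at medium MYC, so that only the high MYC groups were separate (difference 0.96 ± 0.20, adjusted p = 0.00366). INSIG1 fell at both levels, with log2 changes of -0.31 ± 0.04 and -0.26 ± 0.04.

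CEP83-DT, beside the gene of a centriole appendage protein, had 18.8, 24.7, 24.3 and 13.4 with DMSO and 40.9, 53.2, 40.1 and 47.8 with IMP1088 at high MYC and 30.2, 29.1, 29.8 and 27.1 with DMSO and 43.1, 26.8, 27.2 and 36.3 with IMP1088 at medium MYC (difference 0.99 ± 0.28, adjusted p = 0.0293). STAM-DT had 26.1, 29.1, 28.9 and 38.6 with DMSO and 46.6, 40.7, 38.6 and 38.3 with IMP1088 at medium MYC (difference 0.82 ± 0.21, adjusted p = 0.0169), and IRF2-DT had 62.6, 64.2, 60.4 and 59.1 with DMSO and 93.2, 97.4, 105 and 93.8 with IMP1088 (difference 0.80 ± 0.23, adjusted p = 0.0335). SRP14-DT was the single transcript with the smaller value at high MYC: beside its fall there it had 21.9, 26.5, 21.0 and 24.6 with DMSO and 19.8, 36.8, 37.6 and 30.2 with IMP1088 at medium MYC (difference -1.01 ± 0.28, adjusted p = 0.0278). The differences of IRF2-DT, SRP14-DT and CEP83-DT sit near the threshold. Over 27 alternative runs the call of STAM-DT was lost in 1, and those of BMP2K-DT and INSIG1-DT in none. The count of transcripts called for the difference was 7 without medium MYC DMSO library 1. The IRF2-DT call was lost on leaving out high MYC DMSO library 2 or 3, high MYC IMP1088 library 1, 2 or 4, medium MYC DMSO library 1 or 2, or medium MYC IMP1088 library 1, 2 or 4 (adjusted p up to 0.0722). The SRP14-DT call was lost without high MYC DMSO library 1 or 3, high MYC IMP1088 library 3, medium MYC DMSO library 1 or medium MYC IMP1088 library 2 or 3 (up to 0.0764). The CEP83-DT call was lost without high MYC DMSO library 4, high MYC IMP1088 library 2 or 4, medium MYC DMSO library 1 or medium MYC IMP1088 library 2 or 3 (up to 0.0758).

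The -DT transcripts moved in both directions with MYC level, and a smaller share of them rose than of all genes. From high to medium MYC in DMSO, 30 of 159 rose (18.9%) and 56 fell (35.2%), against 38.9% and 37.3% of all genes. The share that fell was thus near that of all genes in this fit. The median log2 change was -0.22 (0.02 for all genes). Of 438 other lincRNAs 26.5% rose and 35.8% fell, with a median of -0.12. Of 441 other antisense genes 28.8% rose and 34.0% fell, with a median of -0.07. Under quantile normalization the -DT counts were 22 and 82, against 5075 higher and 5526 lower among all 13765 genes. Among all genes with a mean of 10 to 20 the median was 0.15, against -0.20 for the 63 -DT transcripts in that range. At least 2-fold changes numbered 17 up and 23 down, but the share of all genes with such changes was not counted. With IMP1088 in both groups, 21 were higher and 76 lower at medium MYC, against 39.7% and 37.8% of all genes. The comparisons with DMSO and with IMP1088 share no library, and 52 of the 56 that fell in DMSO also fell in IMP1088, or 68.4% of the 76, while 19 of the 30 that rose also rose. How often calls recurred in this way among all genes was not counted.

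AFTPH-DT rose most at medium MYC among the transcripts that met the rule. It lies beside a clathrin-trafficking gene and went from 22.6, 25.8, 29.8 and 35.8 to 127, 141, 129 and 136 in DMSO (2.21 ± 0.14, adjusted p = 2.95e-12, limma), and AFTPH rose by less, from 666, 693, 741 and 724 to 1517, 1468, 1351 and 1439 (1.03 ± 0.04). BAIAP2-DT, beside an actin regulator gene, went from 11.3, 2.25, 8.83 and 5.59 to 44.9, 25.7, 30.6 and 25.4. Its mean at high MYC with DMSO was below 10, and it reached that limit through the groups where it is high. The values of BAIAP2-DT are therefore a description with no test. IRF2-DT went from 26.4, 20.2, 14.3 and 27.9 to 62.6, 64.2, 60.4 and 59.1 (1.47 ± 0.16), a shift like that of IRF2, from 198, 213, 188 and 188 to 528, 671, 566 and 638 (1.60 ± 0.07). ZDHHC12-DT rose by 1.25 ± 0.17 and UBL7-DT, beside a ubiquitin-like gene, by 1.19 ± 0.15, with partners that rose by 0.93 ± 0.09 and 0.30 ± 0.07. In each of the 5, all medium MYC libraries lay above all high MYC libraries.

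TMCC1-DT fell most among the transcripts that met the rule. It lies beside an ER membrane gene and had 167, 182, 181 and 178 at high MYC with DMSO but 26.1, 40.2, 26.3 and 38.6 at medium MYC (-2.42 ± 0.15, adjusted p = 3.49e-12), while TMCC1 was called higher although its groups overlap, from 197, 201, 189.8 and 229 to 247, 229, 228 and 231 (0.20 ± 0.07, adjusted p = 0.0207). PRKACB-DT, beside the gene of a protein kinase A catalytic subunit, fell from 73.8, 83.1, 71.7 and 94.999 to 14.6, 17.1, 19.3 and 22.2 (-2.09 ± 0.15, adjusted p = 2.81e-11). HK2-DT, beside the gene of hexokinase 2, the first enzyme of glycolysis, fell from 45.9, 62.9, 59.6 and 55.9 to 25.03, 10.3, 18.4 and 17.2 (-1.66 ± 0.21, adjusted p = 3.88e-07). Their partners had smaller falls, with log2 changes of -0.43 ± 0.08 for PRKACB and -0.93 ± 0.04 for HK2. The log2 change was -1.59 ± 0.14 for RNASEH1-DT and -1.54 ± 0.14 for THOC1-DT, which lies beside a gene of the mRNA export complex THO. All 5 had no overlap between the groups.

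Outside the rule because of their low mean, and named after their values were seen, CD44-DT and CEBPA-DT came close to presence and absence. CD44-DT had 0.753, 0, 0 and 0 at high MYC with DMSO, 1 read in 4 libraries, and 17.7, 27.4, 21.0 and 17.2 at medium MYC, while CD44, an adhesion receptor, had 2277, 2269.7, 2404 and 2412 and 11821, 12056, 11915 and 12195. CEBPA-DT had 33.9, 32.6, 28.7 and 21.2 at high MYC with DMSO and 1.04, 0, 0 and 4.92 at medium MYC, with 32.3, 31.1, 34.9 and 40.5 and 1.17, 1.99, 1.04 and 3.02 in the IMP1088 groups, while CEBPA, a myeloid transcription factor, had 10.5, 15.7, 14.3 and 13.4 and 10.4, 13.7, 8.75 and 12.3, groups that overlap. CD44-DT at high MYC and CEBPA-DT at medium MYC with IMP1088 held at most 3 reads in each library, and no fold is given for these 2.

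CEP83-DT and EFCAB6-DT were the 2 transcripts higher at medium MYC in DMSO and lower there in IMP1088. CEP83-DT changed by 0.53 ± 0.20 in DMSO and -0.46 ± 0.20 in IMP1088 (adjusted p = 0.0196 and 0.042). EFCAB6-DT, named after its values were seen, reached the mean of 10 through the groups where it is high, so its values are a description with no test. It had 9.79, 5.62, 8.83 and 8.94 with DMSO and 15.1, 19.97, 34.9 and 19.8 with IMP1088 at high MYC, and 19.8, 14.6, 19.3 and 17.2 with DMSO and 9.32, 14.9, 14.6 and 18.1 with IMP1088 at medium MYC. Its partner had a mean below 10.

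The last question was whether a -DT transcript and its partner moved together. Over 156 pairs, Pearson's correlation between their log2 changes was 0.47 from high to medium MYC in DMSO and 0.52 in IMP1088. With the nearest tested gene on the other side of the -DT transcript, a median of 78665 bases away, it was 0.08 in DMSO. For IMP1088 the correlation with the partner was 0.21 at high MYC and 0.36 at medium MYC, and for the difference between these responses it was 0.016, against 0.076 with the gene on the other side. Spearman's rank correlations with the partner were lower. From high to medium MYC they were 0.34 in DMSO and 0.38 in IMP1088, and 0.10 with the gene on the other side in DMSO. For IMP1088 they were 0.14 at high MYC and 0.28 at medium MYC. All these values describe pairs that share libraries, and in overlapping pairs perhaps reads. Over the 88 pairs whose -DT transcript overlaps no gene, Pearson's correlation from high to medium MYC in DMSO was 0.48 and Spearman's was 0.35. In DMSO, 20 of the 30 transcripts that rose at medium MYC had a partner that rose and 9 a partner that fell. Of the transcripts that fell, 32 had a partner that fell, 11 a partner that rose and 12 a partner that was not called. Of all 156 partners 37.2% rose and 46.2% fell.

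**Figure D4:**
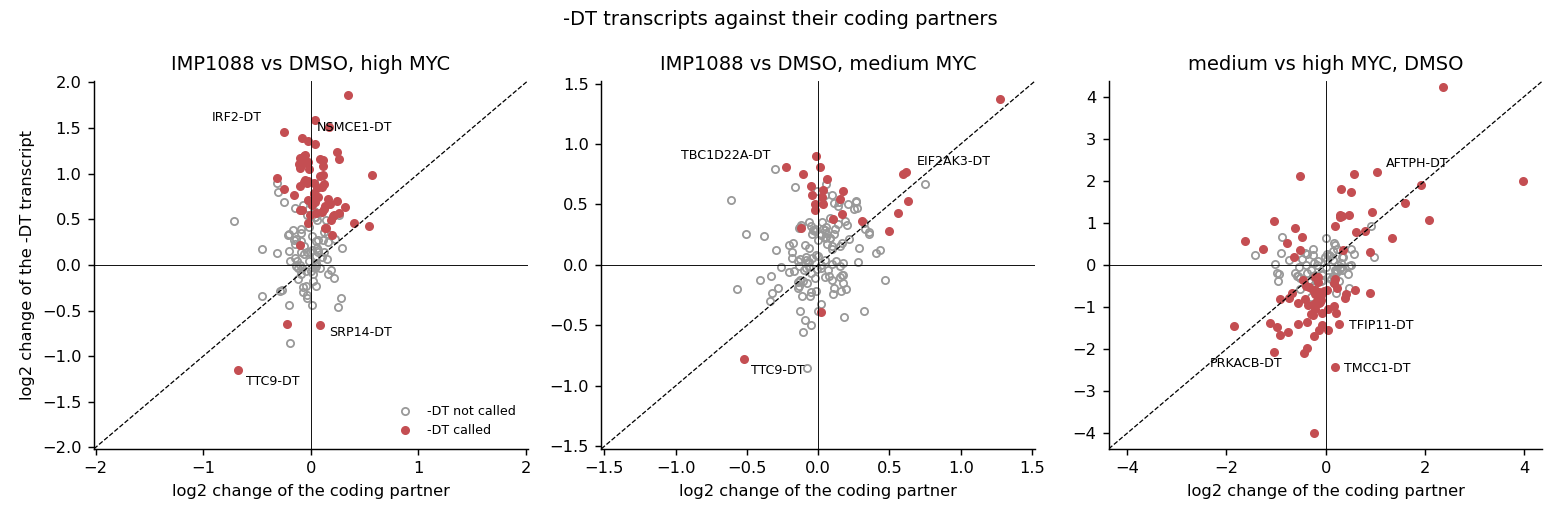
Log2 change of each -DT transcript against that of its partner for 156 pairs in 3 comparisons; filled points are -DT transcripts called at a limma adjusted p under 0.05, and the dashed line marks equal change. With IMP1088 at high MYC the points rise along the vertical axis while the partners stay near 0, and from high to medium MYC they spread along both axes (Pearson's correlation 0.21 and 0.47).

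Pairs in which both were called in opposite directions from high to medium MYC in DMSO included TRMT61A-DT and GMDS-DT beside TMCC1-DT and TFIP11-DT. TRMT61A, a tRNA methyltransferase gene, fell from 399.9, 343, 379.7 and 407 to 123, 132, 132 and 106 (-1.63 ± 0.08), while TRMT61A-DT went from 28.6, 24.7, 24.3 and 23.5 to 26.1, 52.2, 50.8 and 28.7 (0.56 ± 0.21, adjusted p = 0.0218). Its groups overlap, and the call was lost without DMSO library 2 or 3 at medium MYC (adjusted p up to 0.221 over its lost calls, which include quantile normalization). GMDS, the first enzyme of GDP-fucose synthesis, fell from 105, 102, 126 and 118 to 55.3, 65.9, 55.1 and 43.5 (-1.04 ± 0.14) and GMDS-DT rose from 9.04, 15.7, 11.04 and 13.4 to 33.4, 20.5, 24.5 and 26.3 (1.04 ± 0.25, adjusted p = 0.000724). TFIP11-DT fell from 52.0, 62.9, 72.8 and 65.9 to 29.2, 23.1, 22.8 and 18.9 (-1.40 ± 0.14) although only 58 bases part its RefSeq start from that of TFIP11, which rose from 419, 393, 455 and 393 to 473, 503, 534 and 505 (0.28 ± 0.06).

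Within each library the log2 ratio of the -DT transcript to its partner was tested over 1302 head-to-head pairs of genes, 156 of them -DT pairs. With IMP1088 at high MYC the ratio rose in 55 -DT pairs and fell in 4, against 15.8% and 6.99% of all pairs, with a median change of 0.42. Most of all pairs join 2 coding genes, whose order in the ratio is arbitrary, so the shares over all pairs have no direction to compare with. At medium MYC it rose in 11 and fell in 1, against 7.6% and 5.45%, with a median of 0.13. The 4 that fell at high MYC were those of ZDHHC12-DT, SRP14-DT, ZNF8-DT and ZNF567-DT, the last 2 named after their values were seen, and the 1 at medium MYC was GARS1-DT (-0.59 ± 0.07, adjusted p = 5.45e-05), where GARS1 rose from 1035, 1041, 1131 and 1094 to 1457, 1475, 1487 and 1528. The ratio change at high MYC was 1.70 ± 0.17 for IRF2-DT, 1.26 ± 0.16 for INSIG1-DT and 1.08 ± 0.13 for TBC1D22A-DT, the 3 pairs called in opposite directions there.

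Other non-coding genes at head-to-head promoters were also called higher relative to their coding neighbour, and the difference from -DT pairs was not tested. Among 262 other head-to-head pairs of a non-coding and a coding gene, the non-coding share rose in 69 and fell in 4 at high MYC with IMP1088, a median change of 0.30, and rose in 20 and fell in 1 at medium MYC. These 262 met a limit on start distance that was not set for the -DT pairs. From high to medium MYC in DMSO the ratio rose in 32 -DT pairs (20.5%) and fell in 55 (35.3%), against 34.1% and 33.2% of all pairs. Among the 262 other pairs it rose in 67 (25.6%) and fell in 85 (32.4%). The median change was -0.17 for -DT pairs and -0.15 for those 262. The difference between the inhibitor responses was called higher at high MYC in 9 -DT pairs and lower in 1, SRP14-DT, against 2.0% and 1.31%. That count was 4 without high MYC IMP1088 library 1 and 6 without medium MYC IMP1088 library 4.

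**Figure D5:**
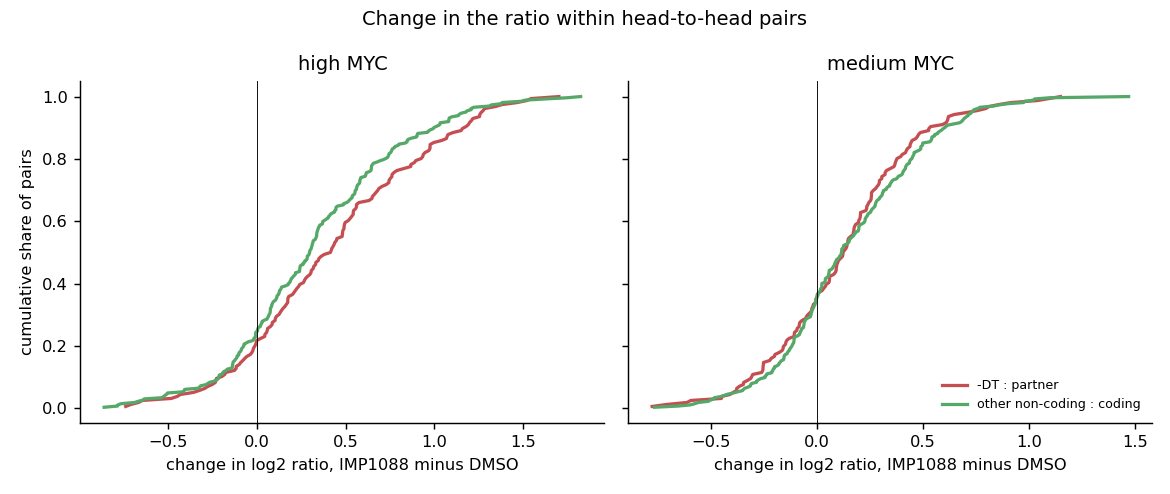
Cumulative share of pairs by the change in their log2 ratio with IMP1088, at high and medium MYC, for 156 -DT transcripts over partners, at any start distance, and 262 other head-to-head non-coding over coding genes. At high MYC the median shift was 0.42 for -DT pairs and 0.30 for the other non-coding pairs, and at medium MYC it was 0.13 and 0.12.

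Genes of RNA decay, of early termination, and of polymerase pausing and elongation were also followed, in lists chosen with earlier results known. Over the 60 genes of these lists, 5 were called higher and 5 lower with IMP1088 at high MYC (10.5% and 16.3% of all genes), 9 higher and 7 lower at medium MYC (11.7% and 14.6%), and 20 higher and 25 lower from high to medium MYC in DMSO (38.9% and 37.3%). Of 13 RNA exosome genes, 2 were called higher with IMP1088 at high MYC (EXOSC6 and DIS3) and none lower, and at medium MYC 6 were higher and 1 lower. Of 11 genes of exosome adaptors, ZFC3H1 and NCBP1 were higher at high MYC and none was called at medium MYC. Of 23 Integrator and termination genes none was higher and 3 were lower at high MYC (INTS3 and CPSF3 among them), and 2 were higher and 4 lower at medium MYC. Of 13 pausing and elongation genes 1 was higher and 2 were lower at each level. The summed level of the exosome genes was 7393 to 7699 at high MYC with DMSO, 7737 to 8068 with IMP1088, 5744 to 6016 at medium MYC with DMSO and 6159 to 6347 with IMP1088. From high to medium MYC in DMSO 8 of the 13 exosome genes fell and 2 rose, and the largest fall was that of EXOSC5, a log2 change of -2.42. Their part in the levels of the -DT transcripts was not tested.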

How the data were processed

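RNA from 16 libraries of P493-6 cells was sequenced after isolation with a miRNeasy kit and cDNA synthesis with a Nugen kit, per the labels. The submitters' processing notes name RSEM 1.2.31, STAR 2.5.2a, DESeq2 1.16.1 and GRCh38, with no role or order. The authors deposited 1 table of normalized counts, a signal per gene that is never negative, for 58051 Ensembl identifiers. The values were whole multiples of 1 step per library (100.0% within a tolerance of 0.001), so that whole reads could be recovered.

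Symbols came from a gene name table (56948 identifiers matched), and positions from GENCODE 29 on GRCh38. limma 3.58.1 (R 4.3.3) was fitted to log2(value + 1) of 13765 genes with a mean of at least 10, with 4 group means and a mean trend, and p-values were adjusted by Benjamini-Hochberg. The fit was tested on simulated data. Ratios were fitted over pairs with starts from 500 bases overlapping to 2000 bases apart, plus all -DT pairs. edgeR 4.0.16 and DESeq2 1.42.0 on recovered reads were alternatives. Reads are not independent molecules, and depth limits the precision of low genes. The replicate numbers were not taken as pairs. The members and lists were chosen with earlier results of these data known.

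Transcripts named are the 5 highest by mean, up to 5 called per direction without overlap in a comparison and with a mean of at least 20, up to 5 per direction for the difference in response, and up to 4 pairs called in opposite directions. Some items that the rule or the lists name are not reported here.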

Additional observations from a re-analysis of the deposited data

Results flagged for a closer look

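Responses to IMP1088 that differed between MYC levels, as the difference in log2 change at high minus medium MYC with limma's adjusted p, were those of BMP2K-DT (0.99, 0.00216), CEP83-DT (0.99, 0.0293), INSIG1-DT (0.96, 0.00366), STAM-DT (0.82, 0.0169), IRF2-DT (0.80, 0.0335), RNF139-DT (0.74, 0.0216), ANKRD42-DT (0.54, 0.0327) and SRP14-DT (-1.01, 0.0278). The difference was 1.999 for SMC2-DT, 1.61 for EFCAB6-DT and 1.38 for GNB1-DT, which have at least 1 group with a mean below 10 and reached a mean of 10 over all libraries through the groups where they are high, so no test is given for them. SMC2-DT had 3.77, 6.74, 2.21 and 13.4 with DMSO and 8.60, 14.4, 16.6 and 14.6 with IMP1088 at high MYC, and 25.03, 14.6, 21.0 and 27.9 and 10.5, 12.9, 12.5 and 10.1 at medium MYC. GNB1-DT had 12.1, 11.2, 8.83 and 8.94 and 21.5, 18.9, 24.4 and 29.1 at high MYC, and 5.22, 6.85, 5.25 and 7.39 and 5.83, 3.97, 4.18 and 6.05 at medium MYC.

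Single libraries stood apart from the other 3 of their group in 13 of 232 groups of values, where chance alone gives about 1 in 20. Among -DT transcripts these were AFTPH-DT at 171 in medium MYC IMP1088 library 4, RNASEH1-DT at 116 in high MYC IMP1088 library 2, and EIF2AK3-DT at 66.6 and DNAJC3-DT at 74.5 in medium MYC IMP1088 library 2. Among partners, high MYC IMP1088 library 4 stood apart for BAIAP2 at 28.1, IRF2 at 173, PRKACB at 404 and STAM at 195, and library 3 of that group for TMCC1 at 167. The others were TMCC1 at 247 in medium MYC DMSO library 1, SRP14 at 876 in medium MYC IMP1088 library 4, EIF2AK3 at 657 in high MYC DMSO library 4 and INSIG1 at 2402 in high MYC DMSO library 2.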

How the results depend on the processing

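No called value of a named transcript changed direction under the alternatives run: 934 recomputed values kept their call and 41 lost it. The numbers of -DT transcripts called were 86 from high to medium MYC in DMSO, 97 in IMP1088, 69 and 26 for IMP1088 at high and medium MYC, and 11 for the difference. With only genes of a mean of at least 100, which leaves few -DT transcripts to test, they were 14, 14, 8, 7 and 0; for the difference, limma with the usual filter had 30 -DT transcripts at an unadjusted p under 0.05, and edgeR called 11. Over transcripts whose exons overlap no other gene, an alternative chosen after seeing the data with 89 transcripts left, the counts were 51, 59 and 15 for the 2 MYC comparisons and for IMP1088 at medium MYC. With no filter beyond 1 value above 0 the counts at medium MYC and for the difference were 17 and 6. DESeq2 called 7 for the difference. Leaving out 1 library gave 78 to 87, 93 to 98, 53 to 71, 18 to 26 and 7 to 11. For the ratio within pairs the counts were 87, 59, 12 and 10, and 75 to 87, 48 to 61, 11 to 15 and 4 to 11 with 1 library left out; a pseudocount of 10 gave 17 for the difference. The replicate numbers shared by the groups were not taken as pairs, because residuals of libraries with the same number correlated between -0.15 and 0.24. With the replicate block the difference was called for 7 transcripts and for 1 pair, and the other counts were 82, 95, 64 and 21. The causes of these changes were not tested beyond the smaller sets. Low depth limits transcripts near a mean of 10, and intervals on reads would cover counting error only.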
